A study of Mus musculus with 2 samples.

Results

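The genes examined here are the cyclins, the cyclin-dependent kinases (CDKs), their inhibitors, the E2F transcription factors and the retinoblastoma (pocket) proteins of mouse long-term haematopoietic stem cells (LT-HSC). They were chosen by gene name in the array annotation: names of the form Ccn plus 1 letter and at most 1 digit, Cdk plus a number, names starting with Cdkn or with E2f and a digit, and Rb1, Rbl1 and Rbl2, with 1 Cdkn gene left out. This gave 53 genes, covered by 104 array sequences, of 24171 genes with a symbol. One group was a C57/BL6 mouse sample labelled as wild type control, the other a C57/BL6 sample labelled as knockout for WASH, an activator of actin assembly on endosomes. The labels state no age and do not say how the knockout was made, in which cells it acts, or how many animals gave each sample. Both samples were LT-HSC purified by flow cytometry from femur marrow, and each was read on 1 NimbleGen array, so no spread between animals and no test can be had for any value below.

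The cell cycle is driven by CDKs, which are active only when bound to a cyclin. Cyclin D with Cdk4 or Cdk6, and then cyclin E with Cdk2, phosphorylate the pocket proteins, which releases E2F factors to switch on genes of DNA synthesis. Cyclin A and cyclin B kinases carry the cell through S phase and into mitosis. The INK4 and CIP/KIP inhibitors hold these kinases back, and long-term stem cells are known for resting outside the cycle most of the time. A further branch of cyclins and CDKs serves mainly transcription and RNA splicing.

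Intensities are given on the linear scale of the deposited values, for the brightest sequence of each gene, and differences are log2 of knockout over control. Levels of different genes are not compared, since each sequence has its own probes. The detected range comprises genes with a value over the array median on 1 array or both (the medians were 137 and 137). Of the 53 genes, 36 were in this range and 17 were not, and the counts below cover only the 36. Probes of random sequence set the background, 71.3 on the control and 75.7 on the knockout array, and 9 of the 53 genes were at or below background on both.

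The stem cell label was set beside 11 genes used to mark LT-HSC, some by presence and some by absence, so detection alone does not bear it out. Of these, 7 were in the detected range, Kit, Ly6a, Slamf1, Mecom, Meis1, Cd34 and Cd48, 3 of them higher and 4 lower. Procr, Tek and Fgd5 were at or below background on both arrays. Cd48, which purified LT-HSC are known to lack, was at 152 and 50.6, the latter below background. Mecom, a transcription factor of stem cells, was at 350 and 163 (-1.10), with 6 sequences from -1.65 to 0.49. Meis1 was at 93.6 and 182 (0.96) and Cd34 at 746 and 1105 (0.57). Washc1, the gene of the WASH protein itself, was at 119 on the control and 107 on the knockout array (-0.15), outside the detected range, and the labels do not say whether its single sequence lies in the deleted part, so it is no check of the knockout label. Markers of other cells also differed between the arrays. Of 18 erythroid markers in the detected range, 17 were higher on the knockout array, 13 of them at least 2-fold (72.2% of the 18). The summed intensity of the 19 measured was 17850 on the control and 88350 on the knockout array. None of these markers was at background on both arrays. The widest erythroid gaps were those of Hbb-b1 (5699 and 43220, 2.92) and Hba-a1 (1023 and 5447, 2.41), both globin genes, and of Car2 (304 and 1519, 2.32), a carbonic anhydrase. Of 17 granulocyte and monocyte markers, 12 were lower, 4 of them at least 2-fold (23.5% of the 17), and 1 was at least 2-fold higher (5.88%). The summed intensity of the 20 measured was 150100 and 61560. Here the genes of granule or calcium-binding proteins Lcn2 (10850 and 3448, -1.65), Ngp (23750 and 7586, -1.65) and S100a8 (47330 and 16700, -1.50) differed most. The 5 higher ones were Csf1r (248 and 563, 1.19), Itgam (0.77), Ly6c2 (0.62), Fcgr3 (0.55) and Cebpe (0.03). Other sequences of Csf1r, Itgam and Fcgr3 were lower, down to -0.26, -1.73 and -1.58. Of 5 detected megakaryocyte markers 2 were at least 2-fold lower, the platelet chemokine genes Ppbp (289 and 110, -1.40) and Pf4 (743 and 325, -1.19). Of 5 detected T and NK markers 1 was, Gzmb, a cytotoxic protease gene (756 and 121, -2.64). In lists this short (40.0% and 20.0% lower by that size) the shares rest on 1 or 2 genes. None of 6 detected B lymphoid markers was past 2-fold, the largest difference being that of Ms4a1 (652 and 1266, 0.96). In such bulk samples fewer cells of a type and less RNA per cell cannot be told apart, and the part of these other cells in the values below was not tested.

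The cell cycle genes did not shift as a whole. Of the 36, 18 were higher and 18 lower in the knockout. Their median difference was 0.02, beside 0.03 for all 16245 genes in the detected range. Only Ccna2 and E2f4 were at least 2-fold higher, 5.56% of the 36, where 6.41% of all genes were. Cdk9, Ccnd1 and Ccnh were at least 2-fold lower, 8.33% of the 36, where 7.29% of all genes were. Both shares are near those of all genes. With an offset of 50 before the log, Ccna2 (0.96), E2f4 (0.89) and Ccnh (-0.95) were short of 2-fold, and with sequences averaged per gene so were E2f4 (0.86) and Cdk9 (-0.66), while Ccnh left the detected range. The 2-fold line separates genes with close values: just inside it were Ccnh (-1.06) and E2f4 (1.09), and just outside it Ccnf (0.99), Cdkn2c (0.91) and Ccny (-0.91). Genes read by several sequences show how far a value depends on the sequence: their differences scattered with an SD of 0.66 (log2, 4969 genes with several detected sequences), and of 0.64 over the 14 such cell cycle genes. Sequences of 1 gene share the arrays and are no replicates, so this SD does not measure variation between arrays or animals.

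**Figure D1:**
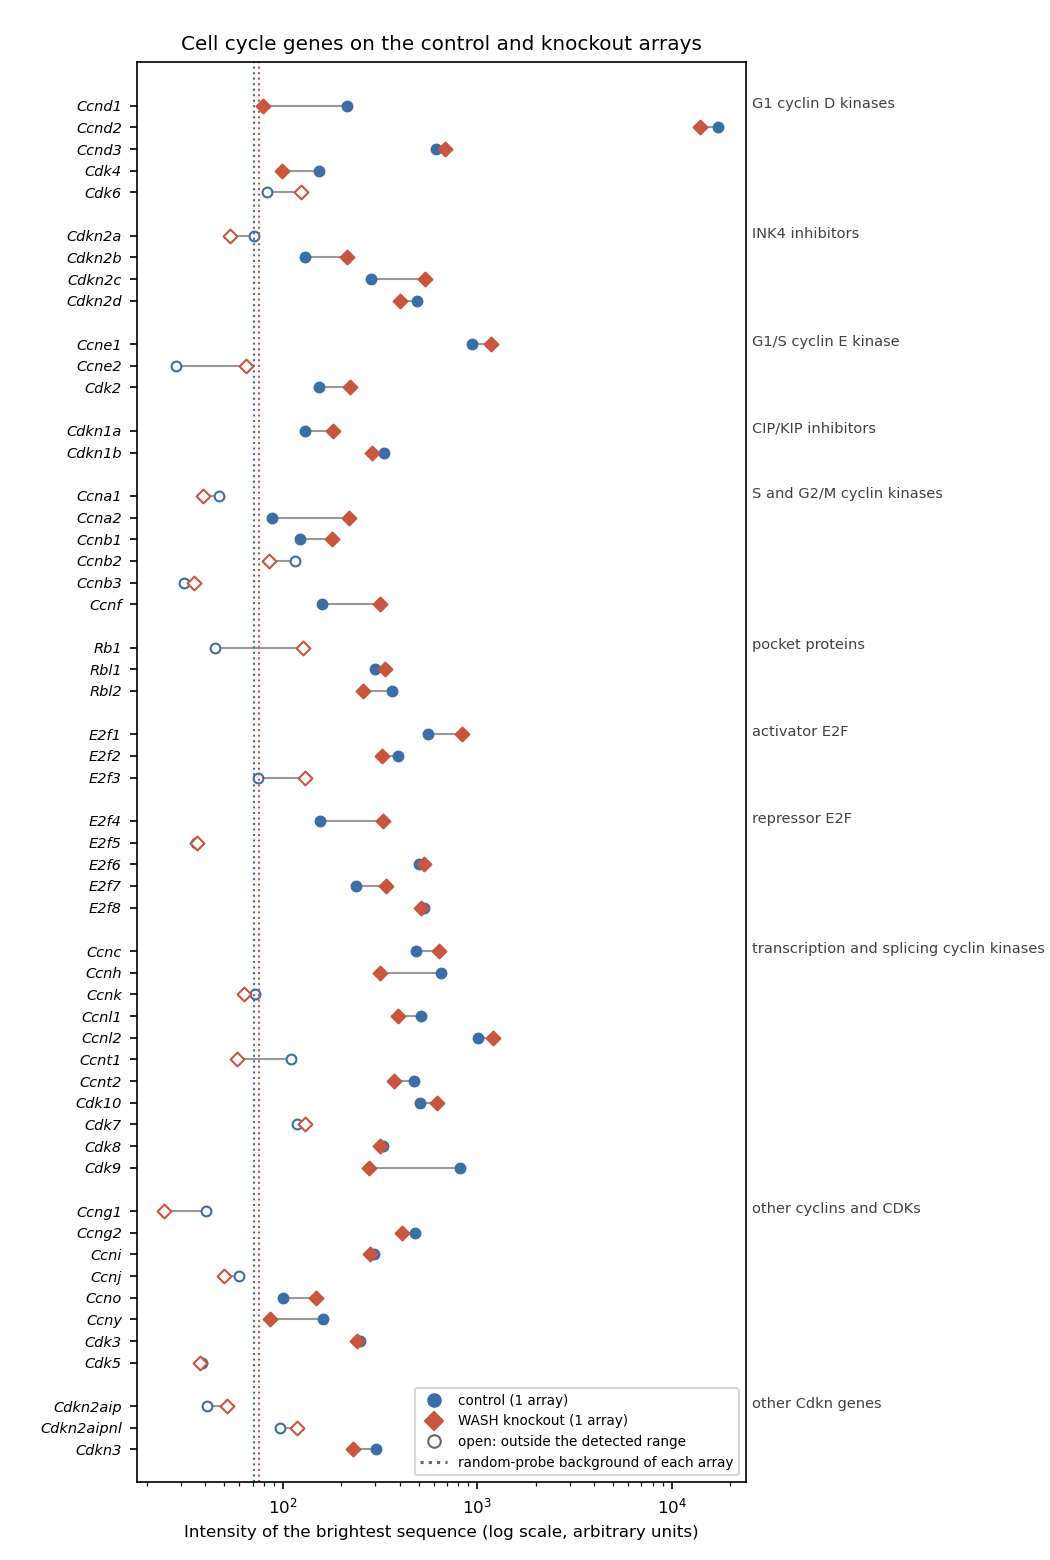
Intensity of the brightest sequence of each of the 53 genes on the control array (circles) and the knockout array (diamonds), on a log axis, grouped by role; open symbols mark genes outside the detected range and dotted lines the background of 71.3 and 75.7. Most pairs of symbols lie close together, with the widest gaps in the detected range at Cdk9, Ccnd1 and Ccna2.

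Divided by role, the 22 detected genes of the division cycle proper comprised 14 higher and 8 lower ones, with a median of 0.25. The other 14 detected genes, grouped under transcription, splicing or other tasks, comprised 4 higher and 10 lower ones, with a median of -0.14. This line is not clean. The 14 include Ccnh, the cyclin of the CDK-activating kinase, Cdkn3, a phosphatase that acts on CDKs, Ccng2 and Cdk3. Cdk1 (-0.33), listed under an older symbol, is in neither group. Over all genes in the detected range 51.7% were higher. Both medians rest on the brightest sequence of each gene. With the dimmest, the median of the transcription and splicing genes was 0.26 and that of the S phase and mitosis cyclins -0.05. The gap between both medians thus depends on the sequence read, and it was not tested.

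Promoters of 42 of the 53 genes were in the RefSeq table used (build GRCm38.p6; 48 windows, each of 250 bases before and 50 after a transcription start). Those of Ccna2, Ccnd1, Ccnd2, Ccne2, Ccnh, Ccny, Cdk3, Cdk5, E2f4, E2f5 and Rb1 were not analysed here. An E2F-type motif, TTTNNCGC on either strand, was found in 8 of the 48 windows (16.7%) and in 5.17% of all 32851 windows. CHR-type motifs (TTTGAA), known from genes of late cell cycle, were in 9 (18.8%, against 17.9% of all), and CCAAT boxes in 25 (52.1%, against 37.4%). No matches of different motifs overlapped within a window. A match describes letters in a window and is not evidence of binding. Shown next are 4 windows with all matches to these motifs in capitals: Ccnf (chr17:24251360-24251659, minus strand) and E2f7 (chr10:110745189-110745488, plus strand), both higher on the knockout array, Cdk9 (chr2:32712735-32713034, minus strand), the gene with the most negative difference, and Rbl1 (chr2:157204485-157204784, minus strand), whose window holds a pair of E2F-type matches. Each is written 5′ to 3′ on the strand of its gene.
Ccnf: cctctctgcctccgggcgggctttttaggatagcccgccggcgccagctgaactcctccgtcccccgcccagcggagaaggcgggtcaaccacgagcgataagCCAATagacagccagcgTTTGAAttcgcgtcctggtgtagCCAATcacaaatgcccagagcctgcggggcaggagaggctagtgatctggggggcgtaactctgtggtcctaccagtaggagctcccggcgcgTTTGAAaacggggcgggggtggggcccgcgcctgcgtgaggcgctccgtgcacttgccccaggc
E2f7: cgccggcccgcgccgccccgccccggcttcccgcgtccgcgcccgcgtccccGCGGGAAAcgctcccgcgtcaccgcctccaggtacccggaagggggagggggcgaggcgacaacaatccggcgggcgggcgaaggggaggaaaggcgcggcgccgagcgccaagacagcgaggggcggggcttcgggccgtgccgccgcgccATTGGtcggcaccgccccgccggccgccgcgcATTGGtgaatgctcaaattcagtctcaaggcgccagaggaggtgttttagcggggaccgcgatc
Cdk9: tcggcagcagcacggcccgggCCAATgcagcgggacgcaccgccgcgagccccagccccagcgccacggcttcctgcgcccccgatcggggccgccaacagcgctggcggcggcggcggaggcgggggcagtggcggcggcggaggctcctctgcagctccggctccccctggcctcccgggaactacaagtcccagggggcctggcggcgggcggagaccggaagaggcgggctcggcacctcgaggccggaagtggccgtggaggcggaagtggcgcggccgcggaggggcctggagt
Rbl1: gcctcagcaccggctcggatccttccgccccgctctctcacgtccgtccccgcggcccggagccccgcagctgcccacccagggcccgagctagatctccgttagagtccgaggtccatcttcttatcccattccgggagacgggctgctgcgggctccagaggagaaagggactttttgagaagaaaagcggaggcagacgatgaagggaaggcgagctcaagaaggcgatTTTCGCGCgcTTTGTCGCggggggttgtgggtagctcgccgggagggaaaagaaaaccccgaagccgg
The Ccnf window held 2 CHR-type matches and 2 CCAAT boxes. That of E2f7 held 1 E2F-type match and 2 CCAAT boxes, that of Cdk9 only 1 CCAAT box, and that of Rbl1 only its 2 E2F-type matches. The other E2F-type matches were in windows of Cdk2, Cdk6, Cdkn2a, E2f2 and E2f3.

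Among the D-type cyclins, which couple outside signals to entry into the cycle, Ccnd1 differed most. It was at 214 on the control and 79.7 on the knockout array, 2.68-fold lower (-1.42; chromosome 7, 152117262 to 152125733, MM9). The knockout value was only 1.05 times background, and the gene has 1 sequence, so this difference rests on a single reading near background. Ccnd2 was bright on both arrays, at 17290 and 13960 (-0.31), 242 and 185 times background. Its other sequence was outside the detected range, at 135 and 69.5, the latter below background. Ccnd3 was at 613 and 683 (0.15). Of their kinase partners, Cdk4 was at 153 and 99.5 (-0.62), while Cdk6 was outside the detected range at 83.4 and 124 (0.57). Of the 4 detected genes of this step, 3 were lower, with a median of -0.46, which was -1.02 with the dimmest sequence of each gene and -0.0767 when only genes above the 75th percentile were kept, each over 2 genes.

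The INK4 inhibitors, which bind Cdk4 and Cdk6, were mixed. Cdkn2c, which encodes p18INK4c, a known brake on stem cell division, was at 285 on the control and 537 on the knockout array (0.91; chromosome 4, 109333480 to 109337977, MM9). Its second sequence went the same way, from 144 to 372 (1.37), so both readings of Cdkn2c were higher in the knockout. Cdkn2b, which encodes p15INK4b, was at 130 and 215 (0.73). By contrast Cdkn2d was at 489 and 399 (-0.29). Cdkn2a, the gene of p16INK4a and p19ARF, stayed at or below background, at 71.2 and 53.6, so no difference could be seen for it. Among the CIP/KIP inhibitors, which bind Cdk2 complexes, Cdkn1a (p21) was at 130 and 182 (0.49), with 1 of its other sequences at 88.3 and 131 (0.57), and the other at 45.2, below background, and 108. Cdkn1b (p27) was at 334 and 289 (-0.21), with 1 sequence lower and the other higher by 0.24. No inhibitor reached a 2-fold difference with its brightest sequence.

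**Figure D2:**
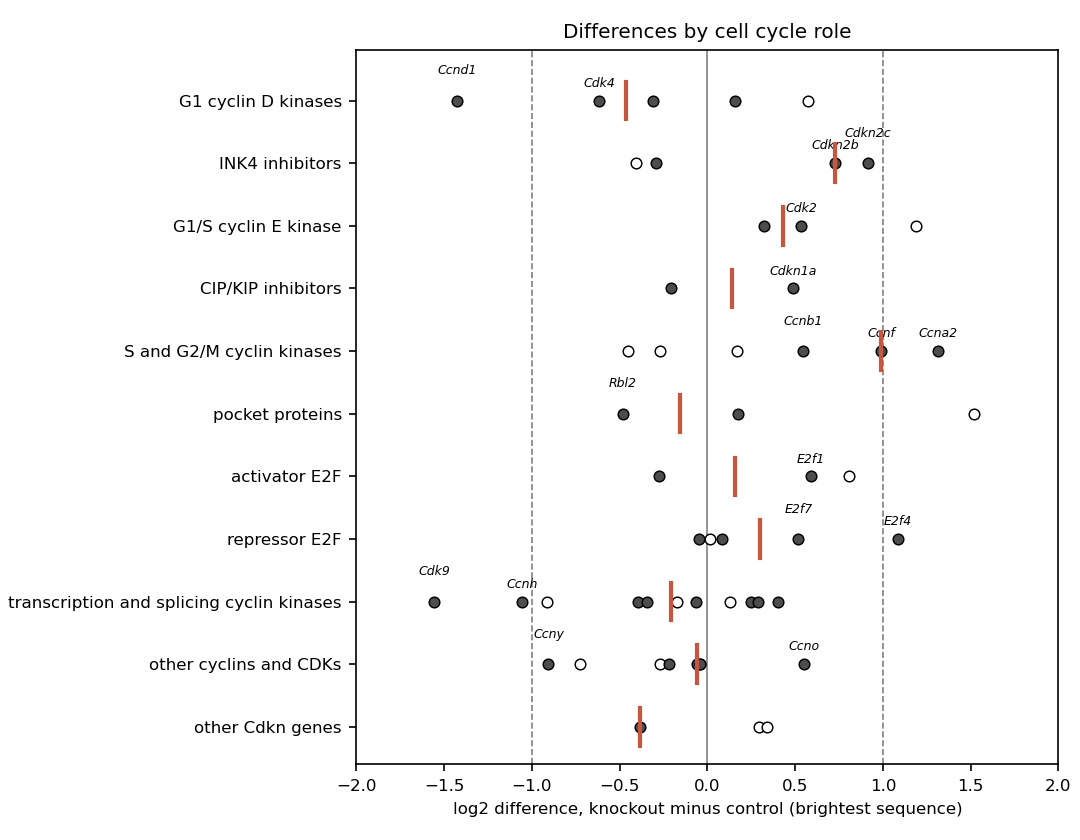
Difference of each gene (log2, knockout minus control) by role; filled points are in the detected range, open points are not, red bars are medians of the filled points and dashed lines mark 2-fold. Among the filled points Ccna2 and E2f4 lie beyond the line on the higher side, and Ccnd1, Ccnh and Cdk9 on the lower side.

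At the G1 to S step no gene reached 2-fold. Ccne1, the cyclin partner of Cdk2, was at 941 and 1177 (0.32), and Cdk2 at 153 and 221 (0.54), each with 1 sequence. Both differences are below the 0.66 by which sequences of 1 gene scattered on these same arrays, which is no measure of variation between animals. Ccne2 stayed below background, at 28.4 and 64.7.

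Of the cyclins of S phase and mitosis, Ccna2, needed for DNA replication and entry into mitosis, was at 88.3 on the control and 219 on the knockout array, 2.48-fold higher (1.31; chromosome 3, 36463793 to 36470866, MM9). The control value was 1.24 times background and the gene has 1 sequence. Ccnf, which encodes the substrate-binding part of a ubiquitin ligase active in G2, was at 159 and 317 (0.99; chromosome 17, 24367970 to 24388354, MM9). Its 5 sequences disagreed, however, with 3 higher and 2 lower and a range from -1.32 to 0.99, where the lowest comes from 162 and a knockout value of 64.8, below background. Ccnb1, the main mitotic cyclin, was at 123 and 180 (0.55), and its second sequence at 146 and 142 (-0.05). Ccnb2 was at 116 and 84.7 (-0.45), outside the detected range, and Ccna1 and Ccnb3, both known from germ cells, were below background on both arrays, at 47.1 and 39.1 and at 31.2 and 35.0. All 3 detected genes of this step were thus higher with their brightest sequence, with a median of 0.99, but that median was 0.25 with the mean and -0.05 with the dimmest sequence of each gene. The kinase that cyclins A and B activate, Cdk1, is listed in the files under its older symbol Cdc2a and so is not among the 53; it was at 313 and 249 (-0.33). The higher values of these cyclins stood beside the higher erythroid markers described above, and the part of erythroid RNA in them was not tested.

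In the E2F family E2f4 differed most, and 4 of the 6 detected members were higher with their brightest sequence, where 51.7% of all genes in the detected range were. Among the activators, E2f1 was at 557 and 837 (0.59), E2f2 at 392 and 325 (-0.27), and E2f3 was outside the detected range, at 74.6 and 130 (0.81), with its other 2 sequences below background on both arrays. Among the repressors and atypical members, E2f4, which acts with pocket proteins in resting cells, was at 155 and 330, 2.12-fold higher (1.09; chromosome 8, 107821623 to 107829270, MM9). Its second sequence was at 176 and 274 (0.64), so both were higher, but only 1 was past 2-fold. E2f7, a repressor of E2F targets late in the cycle, was at 237 and 339 (0.52), and its other sequence was below background on both arrays. E2f6 at 503 and 532 (0.08) and E2f8 at 531 and 513 (-0.05) were nearly alike on both arrays, and E2f5 was below background at 36.0 and 36.3. Other detected sequences gave the opposite sign, -0.02 and -0.25 for E2f6 and 0.30 for E2f8.

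Of the pocket proteins, Rb1 had the widest gap, but outside the detected range: it was at 44.8 on the control array, below background, and at 128 on the knockout array, at least 1.80-fold higher when background is put in place of the control value. Rb1 has 1 sequence. Rbl1 (p107) was at 299 and 337 (0.17), while another of its 3 sequences was lower (-0.92). Rbl2 (p130), the pocket protein typical of resting cells, was at 363 and 259 (-0.48), and its other sequence was below background on both arrays.

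Of the 8 detected cyclins and CDKs of transcription and splicing, Cdk9 and Ccnh were at least 2-fold lower, 25.0% where 7.29% of all genes were, and neither call held with sequences averaged per gene. Cdk9, the kinase that releases paused RNA polymerase II, was at 821 on the control and 279 on the knockout array, 2.94-fold lower (-1.56; chromosome 2, 32562958 to 32566424, MM9). Its second sequence went the other way, from 175 to 205 (0.23), so the difference of Cdk9 depends on the sequence read. Ccnh, the cyclin of the CDK-activating kinase, was at 655 and 315, 2.08-fold lower (-1.06; chromosome 13, 85329102 to 85352513, MM9). Its 3 other sequences were below background on both arrays and give no second reading. Cdk7, the kinase of Ccnh, was outside the detected range at 119 and 130 (0.13), with a second sequence at 137 and 56.4, the latter below background. Mnat1, the assembly factor of the same kinase, was at 717 and 729 (0.02), with 3 sequences from -1.38 to 0.16. Of the cyclins that pair with Cdk9, Ccnt2 was at 474 and 373 (-0.34), and Ccnt1, outside the detected range, was at 110 and 58.1, at least 1.45-fold lower. The Mediator pair Ccnc and Cdk8 was at 484 and 640 (0.40) and at 330 and 315 (-0.07), and 5 of the 6 sequences of Ccnc were higher. The splicing cyclins Ccnl1 and Ccnl2 differed in opposite directions with their brightest sequence (-0.40 and 0.25). However, the 3 sequences of Ccnl2 ranged from -0.24 to 0.33, and the other of Ccnl1 was below background on both arrays. Cdk10 was at 510 and 623 (0.29). Over the 8 detected genes of this branch 3 were higher and 5 lower, with a median of -0.21, which turned to 0.0005 with the mean of each gene's sequences and 0.26 with the dimmest sequence. Ccnk was outside the detected range.

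Of the remaining cyclins and CDKs, none was past 2-fold with its brightest sequence. Ccny, a membrane-bound cyclin, was at 161 and 86.1 (-0.91), with a second sequence at 109 and 33.4, the latter below background. Ccno was at 101 and 148 (0.55), Ccng2, known from cells leaving the cycle, at 479 and 412 (-0.22), Ccni at 294 and 282 (-0.06), and Cdk3 at 249 and 242 (-0.04). Cdk3 had a second sequence that was lower (-1.19). Ccng1, Ccnj and Cdk5 were below background on both arrays. Among genes that share the Cdkn name, Cdkn3, a phosphatase that acts on CDKs, was at 302 and 231 (-0.39), with 4 sequences that ranged from -1.99 to 0.54. Cdkn2aip and Cdkn2aipnl, which are not kinase inhibitors, were outside the detected range. A further 12 cyclin and CDK genes are listed in the files under older symbols, a set gathered after the files were seen. Of these, 9 were in the detected range, 5 higher and 4 lower. Only Cdk17 (listed as Pctk2) was past 2-fold, 11.1% of the 9, where 6.41% of all genes were higher by that size. It was at 276 and 645 (1.23), but its 3 sequences ranged from -0.44 to 1.23.

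Agreement between sequences limits what single genes show. Of the 53 genes, 21 had 1 sequence and 32 had several. Only 14 genes had several sequences in the detected range, and in 4 of these the signs agreed. None of the 14 was past 2-fold with every detected sequence. In Cdkn2c and in E2f4, both higher, 1 of 2 sequences was past that size. Lower in every detected sequence were Cdk3 (-0.04 and -1.19) and Cdkn3 (-0.39, -0.19 and -1.99).

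**Figure D3:**
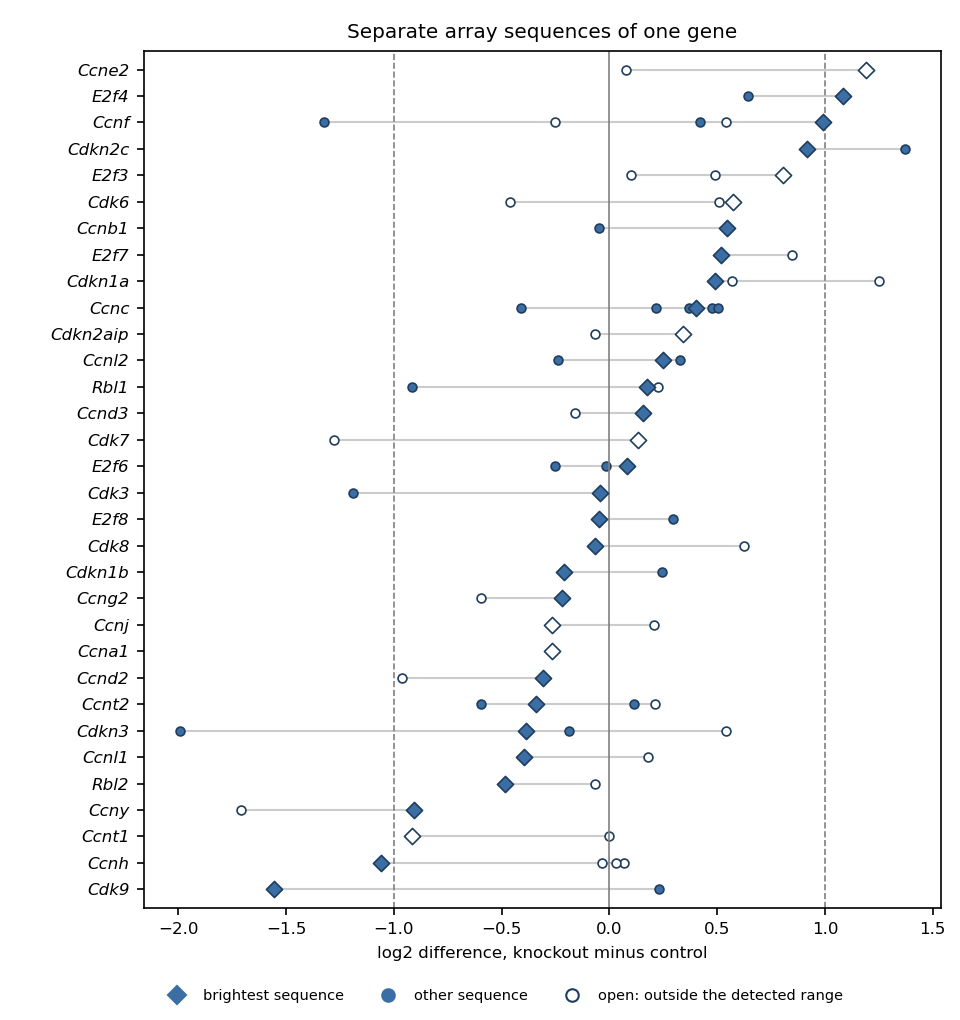
Differences (log2, knockout minus control) of every array sequence of the 32 genes with several sequences, ordered by the brightest (diamonds); circles are other sequences, open symbols are outside the detected range and dashed lines mark 2-fold. The sequences of Cdkn3, Ccnf and Cdk9 spread widely, while both of Cdkn2c and of E2f4 lie on the higher side and both of Cdk3 on the lower side.

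Genes that act with the cell cycle regulators were examined in 4 lists. Of the 13 detected phosphatases, brakes and adaptors of CDKs, 9 were higher and 4 lower, none past 2-fold, with the largest difference at Cdc25c, the phosphatase that activates Cdk1 (207 and 106, -0.96). Of 6 detected E2F partners and DREAM complex genes, 1 was past 2-fold in each direction (16.7% each, where 6.41% of all genes were higher and 7.29% lower by that size). Tfdp2, a DNA-binding partner of E2F, was at 677 and 2785 (2.04), but its 6 sequences ranged from -0.51 to 2.04. Lin54, the DNA-binding part of DREAM, was at 422 and 175 (-1.27), with 3 sequences from -1.27 to 0.33. The S phase genes under E2F control showed no such gap. Among the 11 detected, 6 were higher and 5 lower with a median of 0.03, and the largest difference was that of the replication clamp gene Pcna, at 1079 and 2012 (0.90), with both sequences higher. Of 8 detected G2 and mitosis genes 4 were higher and 4 lower, with a median of 0.08. At least 2-fold higher were 2 of the 8 (25.0%, against 6.41% of all genes). Mki67, a marker of cycling cells, was at 1325 and 3009 (1.18), with all 3 sequences higher, and Cenpf, a kinetochore gene, at 274 and 605 (1.14), with sequences from -0.16 to 1.14. The medians of these 4 lists lay between 0.03 and 0.08, close to the 0.02 of the cell cycle genes, while the erythroid markers had a median of 1.67 and those of granulocytes and monocytes -0.76. Medians of the other marker lists were -0.26 for LT-HSC (Cd48 included), 0.06 for B lymphoid, 0.07 for T and NK and -0.02 for megakaryocyte genes, with the genes past 2-fold in these lists given above. The LT-HSC list mixes markers of presence and of absence, so its median has no single reading.

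**Figure D4:**
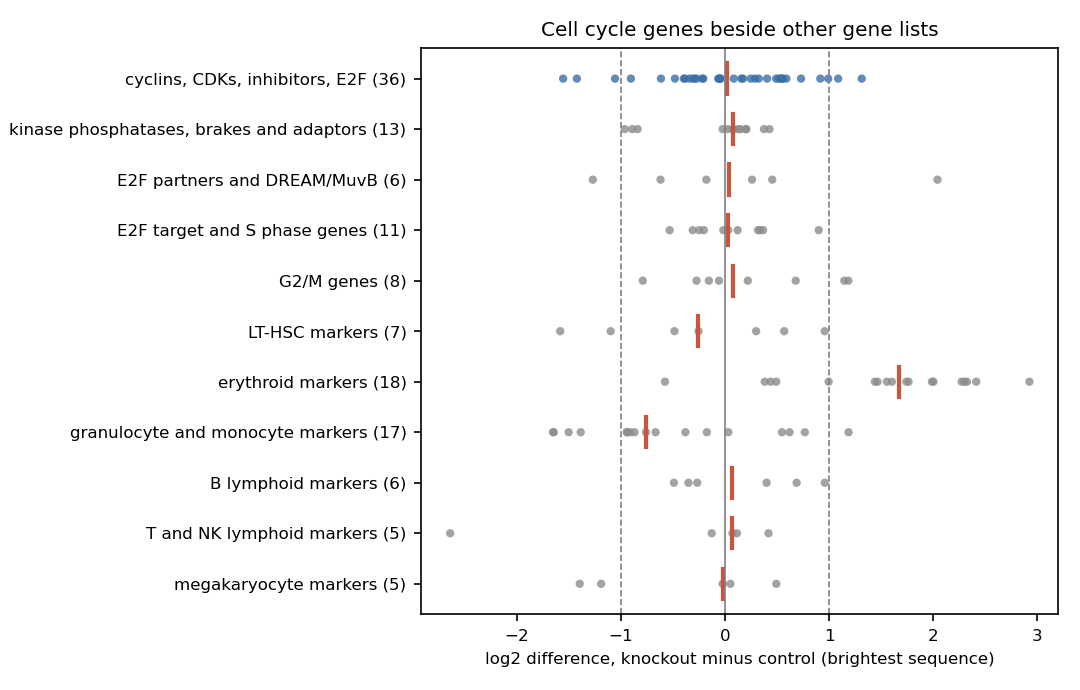
Differences (log2, knockout minus control) of the 36 detected cell cycle genes, of 4 lists of their partners and targets, and of 6 lists of cell type markers; each point is a gene in the detected range, numbers in brackets count them, red bars are medians and dashed lines mark 2-fold. Medians of the cell cycle lists lie near 0, while erythroid markers have a median of 1.67 and granulocyte and monocyte markers one of -0.76.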

How the data were processed

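Per the labels' protocols, total RNA of sorted LT-HSC was labelled with Cy3 and read on NimbleGen arrays, 1 for the control and 1 for the knockout. The authors deposited 1 intensity per sequence on a linear scale, made with RMA per the submitters' processing notes (version not given in the sources used here). RMA draws the arrays to a common distribution, so a shift of most genes one way would not show. Per the file headers and columns, sequences carry MM9 coordinates, and all 104 sequences of the examined genes were summarised from 3 probes. Of these, 80 were also in the series table, where intensities departed from the per-array ones by at most 0.0412 units over all 34218 shared sequences.

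Intensities were turned into log2 values, and the difference is knockout minus control. A gene was read through the sequence with the highest mean log2 value. Genes outside the examined set were named through RefSeq gene identifiers, of which 21583 matched. The detected range began above percentile 50 of an array, and genes were counted at 2-fold or more in place of a test. Every gene of the set is accounted for; those of the core roles, and others at 2-fold or more, are given with both intensities, and from each list of other genes up to 3 at 2-fold or more or else the largest difference. Further genes were named after their values were seen. The set, the lists and the rules were chosen with earlier results of these data known. A few list genes are not reported here. The reduction to 1 value per gene and the 2-fold line were first tested on simulated differences. These were well past 2-fold, alike in every sequence of a gene, and had little noise. Such a test checks the code only, and not calls near the 2-fold line or the choice of sequence. The other computing steps were not tested in this way. Precision is limited by having 1 array per genotype and, in dim genes, by background. Alternatives were the series table, quantile normalization, loess (span 0.3), an offset of 50 before the log, the mean or dimmest sequence, other filters and other sizes. Computations used Python 3.11.15 with pandas 2.3.3, numpy 2.4.6 and statsmodels 0.14.6, and matplotlib 3.10.9 for figures.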

Additional observations from a re-analysis of the deposited data

How the results depend on the processing

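No paired analysis was possible because no genotype had a second array. The count of cell cycle genes at least 2-fold higher, 2, became 0 with an offset before the log, 1 with the 75th percentile filter, 4 without a filter on dim genes (17 dim genes enter), 6 at 1.5-fold and 0 at 3-fold. The count at least 2-fold lower, 3, became 2 with the offset or the 75th percentile filter, 1 with sequences averaged per gene, 5 at 1.5-fold and 0 at 3-fold. With the dimmest sequence it stayed 3, but for Ccnd1, Ccnf (-1.32) and Cdk3 (-1.19). The count higher stayed 2 with the mean or the dimmest sequence, with Cdkn2c (1.14 and 1.37) in place of E2f4. Where every detected sequence had to pass, both counts were 0 of 14 genes; that alternative, a filter at 2 times background and the addition of older symbols were chosen after seeing the data, and the latter 2 left the counts within 1.5 times. Over all genes the offset also took the share at least 2-fold higher from 6.41% to 3.53%, and the share lower from 7.29% to 4.52%. Shares of all genes with averaged sequences, other filters or other sizes were not computed, so those counts have no such scale. With the dimmest sequence the median of all cell cycle genes was 0.24, that of the cyclin D group -1.02 (2 genes), that of the S phase and mitosis cyclins -0.0477 and that of the transcription branch 0.26. The 75th percentile filter left 2 genes and medians of -0.0767 in the cyclin D group and 0.31 in the INK4 group, and took out every S phase and mitosis cyclin. Without a filter the INK4 median was 0.22 and the S phase and mitosis median 0.36, and the latter was 0.25 with sequences averaged per gene. Cdk9 turned to 0.23 with the dimmest sequence. The cause of these changes was not tested. Of 254 values for single genes under 8 alternatives, 248 moved by less than the spread between sequences (0.66), and 13 differed in sign, all of them with the mean or the dimmest sequence. Many of the 254 could not move, so the 248 says little about robustness. A filter does not change a gene's difference, and the series table holds nearly the same intensities. Genes with 1 sequence keep their value with the mean or the dimmest sequence. The small median of all cell cycle genes turned to -0.04 when the series table was used, and to -0.05 under the 75th percentile filter. Signal over background limits Ccnd1, Ccna2 and Rb1, and no value was checked against variation between animals.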
